A study of Mus musculus with 18 samples.

Results

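The genes described are 10 growth factor receptor tyrosine kinases, chosen by symbol: Fgfr1, Fgfr2, Fgfr3, Egfr, Erbb2, Erbb3, Igf1r, Insr, Pdgfrb and Met. All 10 had a row in both tables, among 55183 genes listed for cultured cells and 19464 listed for whole brain. Their transcripts were measured by RNA sequencing in 18 mouse libraries, 3 in each of 6 groups. PTCP53 304 cells, a single line labelled as SHH medulloblastoma (the Sonic hedgehog class of this cerebellar tumour) with the genotype Ptch1+/-; Trp53-/-, were given vehicle or CT-179, labelled as OLIG2 inhibition, and collected after 24 h or 144 h, which the labels also call day 1 and day 6. Whole brains came from mice labelled Ptch1+/-; IR dosed with vehicle or with CT-179 from postnatal day 3 to 15, a span of 12 days. The labels do not explain the letters IR, and every brain group carries them. The titles of the brain libraries with the CT-179 treatment label also contain the word vehicle, so each direction in brain rests on the treatment label. The labels do not tie a replicate to its own culture or mouse, so every p-value reflects only how far these libraries spread, which may be technical.

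Receptor tyrosine kinases are single-pass membrane proteins that dimerise when a growth factor binds outside the cell, phosphorylate each other inside it and recruit adaptors that switch on the RAS-MAPK and PI3K-AKT routes. FGFR1, FGFR2 and FGFR3 bind fibroblast growth factors together with heparan sulphate, EGFR binds EGF-like ligands, ERBB2 has no ligand of its own and pairs with EGFR or ERBB3, and ERBB3 binds neuregulins but has little kinase activity. IGF1R and INSR are relatives that bind insulin-like growth factors and insulin, PDGFRB is a mural cell receptor for PDGF-B in brain vessels, and MET binds hepatocyte growth factor. In the brain, FGFR3 marks astrocytes and their precursors, and ERBB3 is found in the oligodendrocyte lineage.

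On mm10, the build named in the submitters' processing notes, GENCODE M21 placed the genes as follows: Fgfr1 at chr8:25513654-25575718, Fgfr3 at chr5:33721674-33737068, Egfr at chr11:16752203-16918158, Erbb2 at chr11:98412470-98437716, Igf1r at chr7:67952827-68233668 and Met at chr6:17463800-17573980, all on the plus strand. Erbb3 lay at chr10:128567523-128589652, Insr at chr8:3122061-3279617 and Fgfr2 at chr7:130162451-133123350, all on the minus strand. The annotated Fgfr2 span of 2.96 Mb crossed 69 other genes, and 3.04% of its exonic bases were shared with them. Of the exonic bases of Fgfr3, 13.9% were shared with G630022F23Rik on the opposite strand. The strand setting of the counting was not given in the sources used here, so reads in these shared bases cannot be told apart.

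RefSeq promoter windows (GRCm38.p6, 250 bases before to 50 after a start) were given for 6 of the 10 genes, as 7 windows. They were searched on both strands for the E-box CANNTG, the hexamer that basic helix-loop-helix factors such as OLIG2 bind as a class. At least 1 E-box stood in 4 of the 7 windows, against 72.3% of 32851 promoter windows of the same length. For Fgfr3 the first of its windows is shown. The windows of 2 genes whose transcripts rose between 24 h and 144 h (Fgfr3 and Fgfr2) and of 2 from the ERBB family (Egfr and Erbb2) are shown 5′ to 3′ on the strand of the gene, with E-boxes in capitals. They lie at chr5:33721474-33721773 (Fgfr3, plus strand), chr7:130266759-130267058 (Fgfr2, minus strand), chr11:16751953-16752252 (Egfr, plus strand) and chr11:98412234-98412533 (Erbb2, plus strand).
Fgfr3: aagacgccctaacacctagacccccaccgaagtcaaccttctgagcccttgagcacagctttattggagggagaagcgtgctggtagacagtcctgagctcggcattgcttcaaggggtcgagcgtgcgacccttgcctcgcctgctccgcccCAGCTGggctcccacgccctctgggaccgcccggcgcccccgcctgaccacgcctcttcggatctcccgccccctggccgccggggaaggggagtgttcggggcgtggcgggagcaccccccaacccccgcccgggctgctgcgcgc
Fgfr2: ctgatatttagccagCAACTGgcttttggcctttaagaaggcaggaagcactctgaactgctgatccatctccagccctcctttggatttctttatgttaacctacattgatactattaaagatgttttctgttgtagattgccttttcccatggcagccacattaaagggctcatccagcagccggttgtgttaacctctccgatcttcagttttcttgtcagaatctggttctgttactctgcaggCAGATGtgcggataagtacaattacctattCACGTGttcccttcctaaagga
Egfr: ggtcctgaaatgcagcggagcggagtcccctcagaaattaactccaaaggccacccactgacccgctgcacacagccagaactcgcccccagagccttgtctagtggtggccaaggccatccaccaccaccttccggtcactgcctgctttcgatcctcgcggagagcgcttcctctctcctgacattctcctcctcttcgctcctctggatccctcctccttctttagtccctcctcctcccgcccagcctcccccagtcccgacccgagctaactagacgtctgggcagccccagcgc
Erbb2: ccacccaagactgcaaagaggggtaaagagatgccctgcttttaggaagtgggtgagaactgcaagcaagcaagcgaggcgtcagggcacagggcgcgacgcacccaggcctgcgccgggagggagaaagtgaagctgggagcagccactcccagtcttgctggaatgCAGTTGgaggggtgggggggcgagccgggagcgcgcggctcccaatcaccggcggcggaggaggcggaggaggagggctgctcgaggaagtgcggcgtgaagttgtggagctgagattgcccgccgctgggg
The Fgfr3 window shown held a CAGCTG (found in 16.3% of all windows), while its other window, at chr5:33722056-33722355, held no E-box. The Fgfr2 window held a CAGATG (17.2%) and a CACGTG (7.20%) besides a CAACTG, the Erbb2 window held a CAGTTG, and the Egfr window held no E-box. These are matches of letters, not binding sites, and no binding was measured.

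Levels are FPKM, fragments per kilobase of gene scaled by library depth, so they can be compared between genes. From the smallest steps of the values, the depth came to 2.92e+07 to 7.00e+07 reads for each library of cells and 1.78e+07 to 6.35e+07 for each of brain. The library labelled CT-179 144 h replicate 2 was unlike its group, with r of 0.941 to 0.943 to its other members, where pairs within the other cell groups had at least 0.996. Lars2 with Gm15564, which overlaps it, took 12.5% of the reads implied for brain vehicle replicate 2 and 0.06% to 0.07% of those of each other brain library. Of 10 granule precursor and SHH medulloblastoma markers, 7 reached a mean of 1 FPKM in every cell group, and Atoh1, Barhl1 and Neurod1 did not. Endothelial markers were near 0 in cells (summed level at most 0.272 FPKM, 0 of 6 at 1 FPKM), and all 6 were present in brain.

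**Figure D1:**
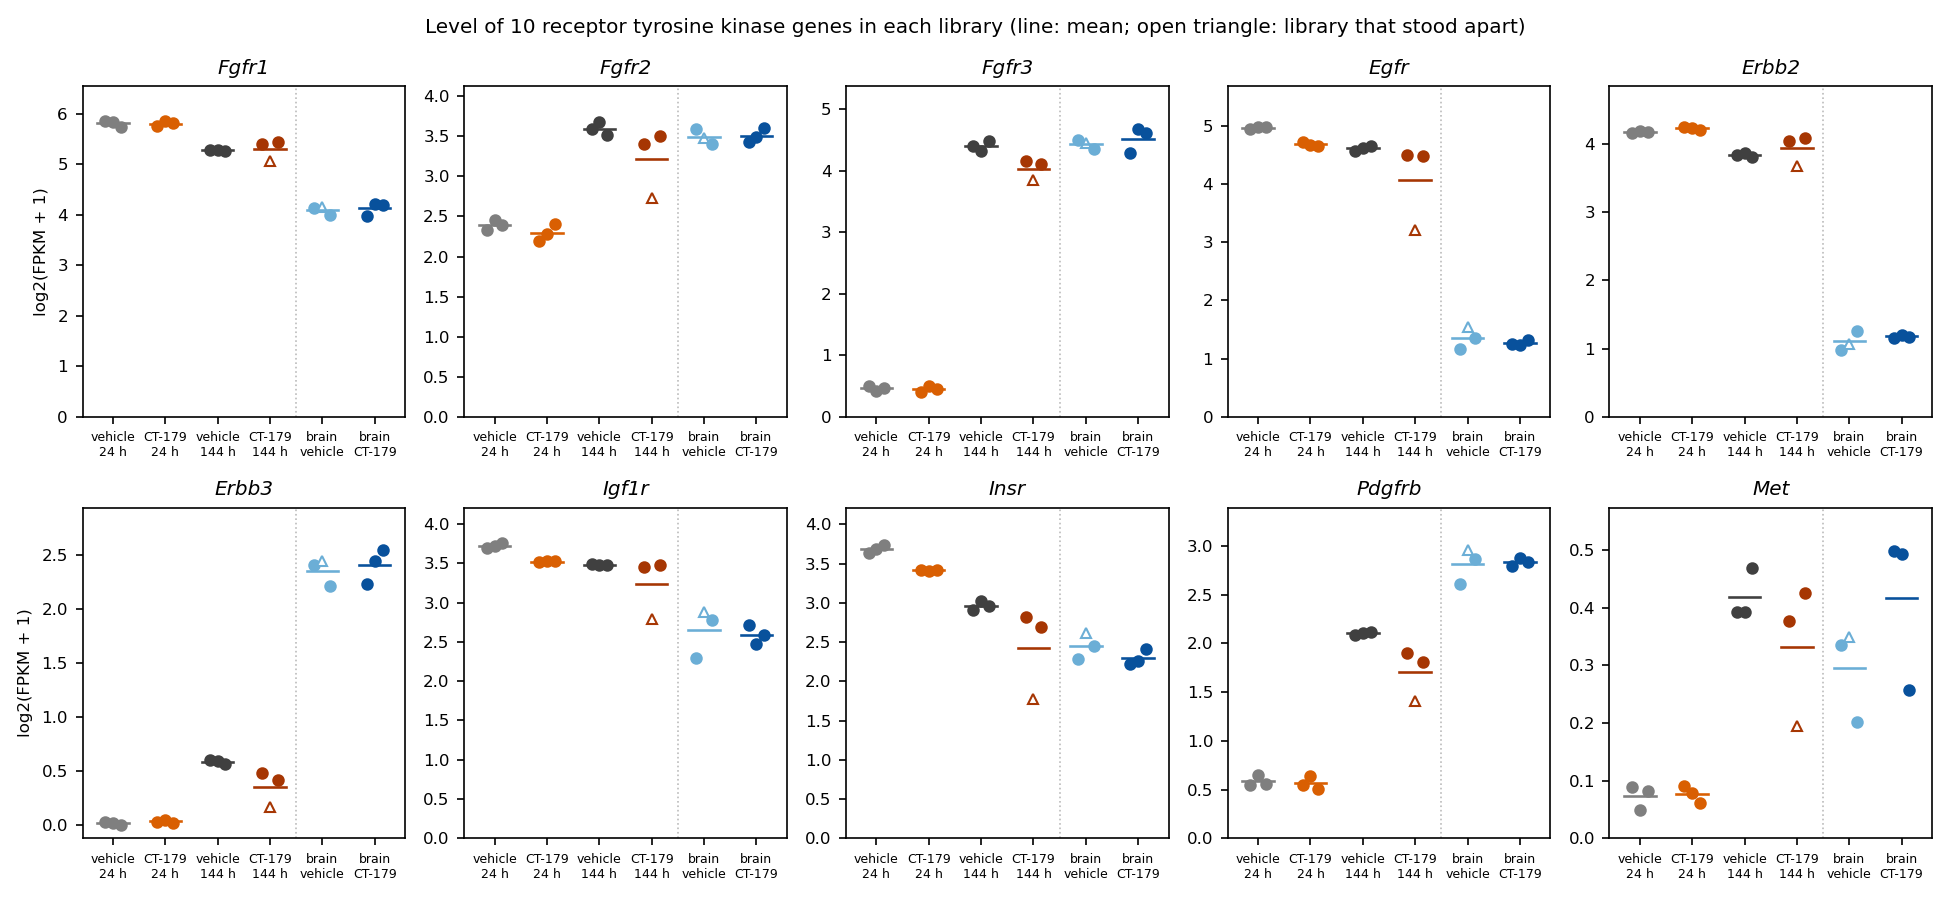
Level of each of the 10 receptor genes in all 18 libraries, as log2(FPKM + 1), by group, with a separate vertical scale for each gene. Points are libraries, lines are group means, and open triangles mark CT-179 144 h replicate 2 and brain vehicle replicate 2; Fgfr3 stood below 0.5 FPKM in all 24 h libraries and between 13.4 and 21.4 FPKM in all 144 h libraries.

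In vehicle cells at 24 h, Fgfr1 was the most abundant of the 10 transcripts, followed by Egfr and Erbb2. Fgfr1 made up 41.9% of their summed mean FPKM, Egfr 22.9% and Erbb2 12.8%. Igf1r (12.0 to 12.5 FPKM) and Insr (11.4 to 12.3 FPKM) came next and overlapped. Fgfr2 (4.04 to 4.50 FPKM) lay above Pdgfrb and Fgfr3, which were both under 0.6 FPKM. Met and Erbb3 were at the limit of detection: Met read 0.0634, 0.0347 and 0.0584 FPKM, and Erbb3 read 0.0156, 0.00999 and 0 FPKM, which corresponds to about 3, 2 and 0 reads. By 144 h in vehicle, Fgfr3 had moved to the third place with 15.9% of the sum, behind Fgfr1 with 29.8% and Egfr with 18.5%.

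In vehicle brains the order was different, with Fgfr3 first at 29.5% of the summed mean FPKM, Fgfr1 at 23.0% and Fgfr2 at 14.6%. Pdgfrb, Igf1r, Insr and Erbb3 followed at means of 6.07, 5.38, 4.49 and 4.11 FPKM, each overlapping the next. Egfr (1.24 to 1.90 FPKM) and Erbb2 (0.978 to 1.40 FPKM) overlapped and lay near the bottom, above Met alone. Cells and brain were normalised in separate tables, so these levels are set side by side without a test. In the bar chart of shares, Egfr made up 22.9% in vehicle cells at 24 h, 18.5% at 144 h and 2.23% in vehicle brain, and Erbb2 made up 12.8%, 10.5% and 1.66%.

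**Figure D2:**
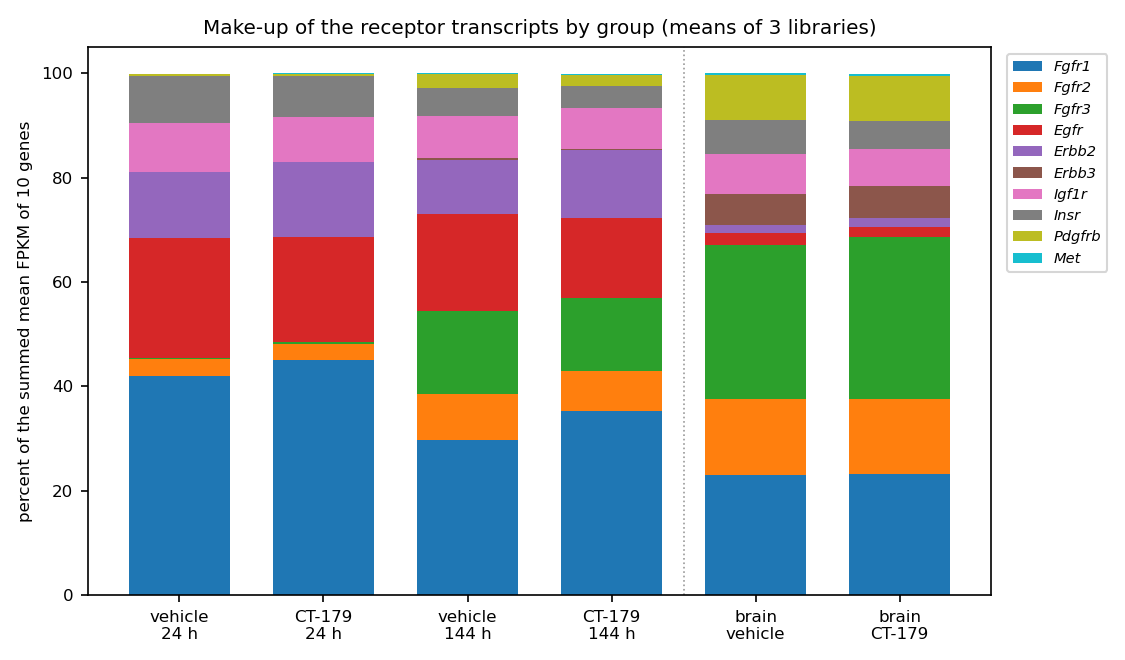
Share of each gene in the summed mean FPKM of the 10 receptor genes, in percent, for the 4 cell groups and the 2 brain groups (means of 3 libraries). Fgfr1 makes up 41.9% of the sum at 24 h and 29.8% at 144 h in vehicle cells, Fgfr3 makes up 15.9% at 144 h, and Fgfr3 leads in brain at 29.5%.

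Time in culture was the comparison with the widest differences among the receptors. In vehicle cells Fgfr3, Pdgfrb and Fgfr2 rose between 24 h and 144 h, and Insr, Fgfr1 and Erbb2 fell. These were 6 of the 8 receptors that passed the filter on low values (at least 1 FPKM in at least 3 libraries), tested with limma on log2(FPKM + 1) with Benjamini-Hochberg adjustment over 12510 genes. Of all genes tested, 66.5% passed the same threshold of 0.05 (34.1% higher and 32.4% lower), so a share of this size is near the background. Fgfr3 and Pdgfrb, both under 1 FPKM in every 24 h library, passed the filter only through the 144 h libraries where they are high, so they had to differ and the count is no support for a change of the group. In bulk RNA, fewer cells of a type and less RNA per cell cannot be told apart.

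Among the FGF receptors, Fgfr3 had 0.421, 0.331 and 0.379 FPKM in vehicle at 24 h and 20.1, 19.0 and 21.4 FPKM at 144 h. The groups did not come near each other, and the ratio of means was 53.6. Its log2 change was 3.94 (SE 0.09, adjusted p 5.8e-11). Because Fgfr3 passed the filter only through the 144 h libraries, that p-value is no support for the rise. Fgfr2 went from 4.04, 4.50 and 4.26 FPKM to 11.1, 11.8 and 10.4 FPKM, a ratio of 2.6 (log2 change 1.2, SE 0.17, adjusted p 8.3e-05). Fgfr1 moved the other way, from 57.2, 56.1 and 52.5 FPKM to 37.8, 38.2 and 37.4 FPKM (log2 change -0.53, SE 0.09, adjusted p 3.8e-04). The 3 receptors for the same ligand family therefore did not move together.

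In the ERBB family, Erbb2 went from 16.8, 17.1 and 17.0 FPKM to 13.3, 13.5 and 13 FPKM (log2 change -0.33, SE 0.10, adjusted p 0.011). Egfr read 29.8, 30.3 and 30.4 FPKM at 24 h and 22.6, 23.6 and 24.1 FPKM at 144 h. These Egfr groups did not overlap either, but its log2 change of -0.35 had an SE of 0.27 and an adjusted p of 0.27. The fit shares its spread with CT-179 144 h replicate 2, which read 8.20 FPKM for Egfr beside 21.5 and 21.4 FPKM. Without that library the Egfr change had an adjusted p of 1.8e-07 by limma at the same size. With all libraries and a correction for exonic length it was -0.45 (adjusted p 0.0078). Erbb3, under the filter, was at 0.0156, 0.00999 and 0 FPKM and then at 0.510, 0.506 and 0.472 FPKM, about 0 to 3 reads against 91.8 to 110.4 reads. Every 144 h library was above every 24 h library (exact permutation p 0.1, two-sided, the smallest that 3 against 3 allows), and no fold is given for a gene this close to 0.

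Of the insulin-type receptors, Insr had 11.4, 11.9 and 12.3 FPKM at 24 h and 6.49, 7.10 and 6.77 FPKM at 144 h. All 3 later libraries were below all 3 earlier ones, with a log2 change of -0.73 (SE 0.21, adjusted p 0.012). Igf1r differed less, with 12.0, 12.2 and 12.5 FPKM against 10.2, 10.1 and 10.1 FPKM (log2 change -0.25, SE 0.15, adjusted p 0.16). It passed by limma without CT-179 144 h replicate 2 (adjusted p 1.9e-06). It also passed with all libraries and a correction for exonic length (-0.37, adjusted p 1.9e-04).

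Pdgfrb, on chromosome 18, went from 0.464, 0.565 and 0.476 FPKM to 3.24, 3.32 and 3.33 FPKM, a ratio of 6.58 (log2 change 1.52, SE 0.11, adjusted p 4.2e-07). Because Pdgfrb also passed the filter only through the 144 h libraries, its p-value is no support for the rise. Met, under the filter, went from 0.0634, 0.0347 and 0.0584 FPKM to 0.313, 0.313 and 0.384 FPKM. Its ratio of 6.45 rests on 8.70 to 15.3 reads per library at 24 h (exact permutation p 0.1, two-sided). Astrocyte markers moved over the same interval, with a summed level of 460 to 492 FPKM at 24 h and 1080 to 1100 FPKM at 144 h in vehicle and 5 then 8 of 8 markers at 1 FPKM. The summed level of 8 pericyte and mural markers went from 8.84 to 9.27 FPKM to 51.4 to 54.1 FPKM, with 2 of 8 at 1 FPKM at each time and Higd1b at 0 throughout. Notch3 carried most of that sum (mean 6.56 FPKM at 24 h and 47.0 FPKM at 144 h), Acta2 went from 1.76 to 0.244 FPKM and Kcnj8 from 0.157 to 3.66 FPKM, so the 2 markers at 1 FPKM were Notch3 with Acta2 and then Notch3 with Kcnj8. Summed levels of other lists rose as well. Mature oligodendrocyte markers went from 6.53 to 6.92 FPKM to 54.4 to 57.2 FPKM, and neuron markers from 5.42 to 5.97 FPKM to 26.9 to 27.9 FPKM. Microglia markers went from 15.0 to 15.9 FPKM to 65.4 to 71.9 FPKM, and granule precursor markers from 45.1 to 47.4 FPKM to 87.0 to 89.6 FPKM. The summed level of oligodendrocyte precursor markers fell, from 1010 to 1130 FPKM to 678 to 703 FPKM, and Olig1 and Olig2 carried most of it. Mean Olig1 went from 657 to 397 FPKM, Olig2 from 382 to 201 FPKM and Cspg4 from 30.4 to 21.7 FPKM. The rest of that list went the other way: Gpr17 (0.228 to 49.3 FPKM), Pdgfra (6.54 to 21.4 FPKM) and Sox10 (0.00376 to 0.213 FPKM). The part of any list in the Fgfr3 and Pdgfrb values was not tested.

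Counting all 10 genes, 5 were higher and 5 lower at 144 h with no overlap in vehicle, where 87.5% of the genes tested did not overlap. That share leaves out Erbb3 and Met, which were under the filter. Under CT-179, compared with its own 24 h libraries, the same 6 receptors passed in the same directions, where 65.3% of all genes passed (33.2% higher and 32.1% lower). Fgfr3 and Pdgfrb again entered only through the 144 h libraries, so this count is no support for a change of the group either. Fgfr3 changed by 3.59, Pdgfrb by 1.14 and Fgfr2 by 0.92, and Insr by -0.98, Fgfr1 by -0.50 and Erbb2 by -0.29 on the log2 scale. Scaling each library to a constant sum moved the median of all genes in vehicle from 0.01 to 0.11; Insr and Erbb2 then no longer passed in vehicle (adjusted p 0.09 and 0.25), nor did Erbb2 under CT-179 (0.13), and the other calls held in direction and threshold. The Erbb2 change under CT-179 was -0.16 without CT-179 144 h replicate 2 (adjusted p 3.8e-04), and it did not pass without CT-179 24 h replicate 1 (adjusted p 0.059) or 2 (adjusted p 0.056). Leaving out CT-179 144 h replicate 2 raised the counts to 8 in vehicle (87.7% of all genes) and 7 under CT-179 (85.6%).

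**Figure D3:**
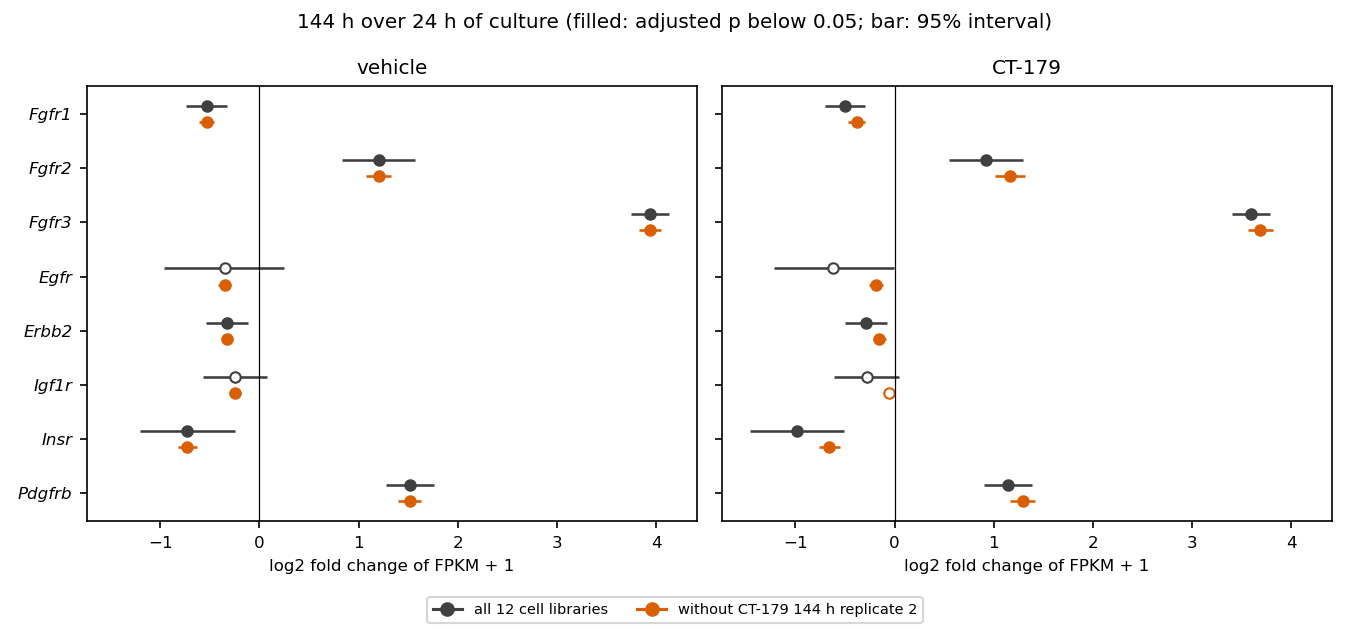
Log2 change of FPKM + 1 from 24 h to 144 h of culture in vehicle cells (left) and CT-179 cells (right) for the 8 receptors tested, with 95% intervals from limma, with all 12 cell libraries and without CT-179 144 h replicate 2. Fgfr3, Pdgfrb and Fgfr2 lie right of 0 and Insr, Fgfr1 and Erbb2 left of it in both panels; filled points passed an adjusted p of 0.05.

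At 24 h, Egfr, Insr and Igf1r read lower with CT-179 than with vehicle, at 0.815, 0.813 and 0.854 of the vehicle mean, and the other receptors differed little. Egfr read 25.3, 24.4 and 24.1 FPKM with CT-179 against 29.8, 30.3 and 30.4 FPKM with vehicle. Insr read 9.71, 9.56 and 9.70 FPKM against 11.4, 11.9 and 12.3 FPKM. Igf1r read 10.4, 10.5 and 10.5 FPKM against 12.0, 12.2 and 12.5 FPKM. In these 3 genes every CT-179 library was below every vehicle library, and for Erbb2 every one was above (17.9, 17.8 and 17.3 FPKM against 16.8, 17.1 and 17.0 FPKM). The remaining 6 overlapped, so 4 of 10 did not overlap, where 37.3% of all genes tested did not. That share leaves out Erbb3 and Met, which overlapped and were under the filter.

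With all 12 cell libraries in the fit, 0 of the 8 receptors tested passed at 24 h by limma, where 0.264% of all genes passed, and 0 had an unadjusted p under 0.05. The log2 differences were -0.28 for Egfr (95% interval -0.89 to 0.32), -0.27 for Insr (-0.75 to 0.20), -0.21 for Igf1r (-0.53 to 0.12) and 0.06 for Erbb2 (-0.16 to 0.27). Without CT-179 144 h replicate 2, a library outside this comparison that only sets the shared spread, Egfr (adjusted p 1.3e-04), Igf1r (adjusted p 4.9e-04) and Insr (adjusted p 0.0016) passed at the same sizes. In that fit 22.2% of all genes passed, 14.1% in the lower direction. In that fit the intervals for Fgfr1, at 0.00 (-0.08 to 0.07), Fgfr3, at -0.01 (-0.12 to 0.10), and Pdgfrb, at -0.02 (-0.13 to 0.10), included 0. Fgfr3 and Pdgfrb were under 1 FPKM in every 24 h library, where log2(FPKM + 1) shrinks a difference, so their narrow intervals say little.

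The length of the genes moved with these values. Across 11361 protein-coding genes, the log2 difference at 24 h had a Spearman rho of -0.52 with exonic length (a description across genes, which are not replicates). Egfr, Fgfr2, Igf1r and Insr, at 11326, 10328, 16791 and 13746 exonic bases, lay in the longest decile of genes, whose median difference was -0.10. In that decile 45.0% of genes passed without the library that stood apart, against 22.2% of all genes. With a length correction and without that library, Egfr differed by -0.18 (adjusted p 0.0021), Insr by -0.15 (adjusted p 0.021) and Igf1r by -0.06 (adjusted p 0.19), and Erbb2 passed at 0.09 (adjusted p 0.043), where 16.1% of all genes passed (9.26% higher and 6.83% lower).

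**Figure D4:**
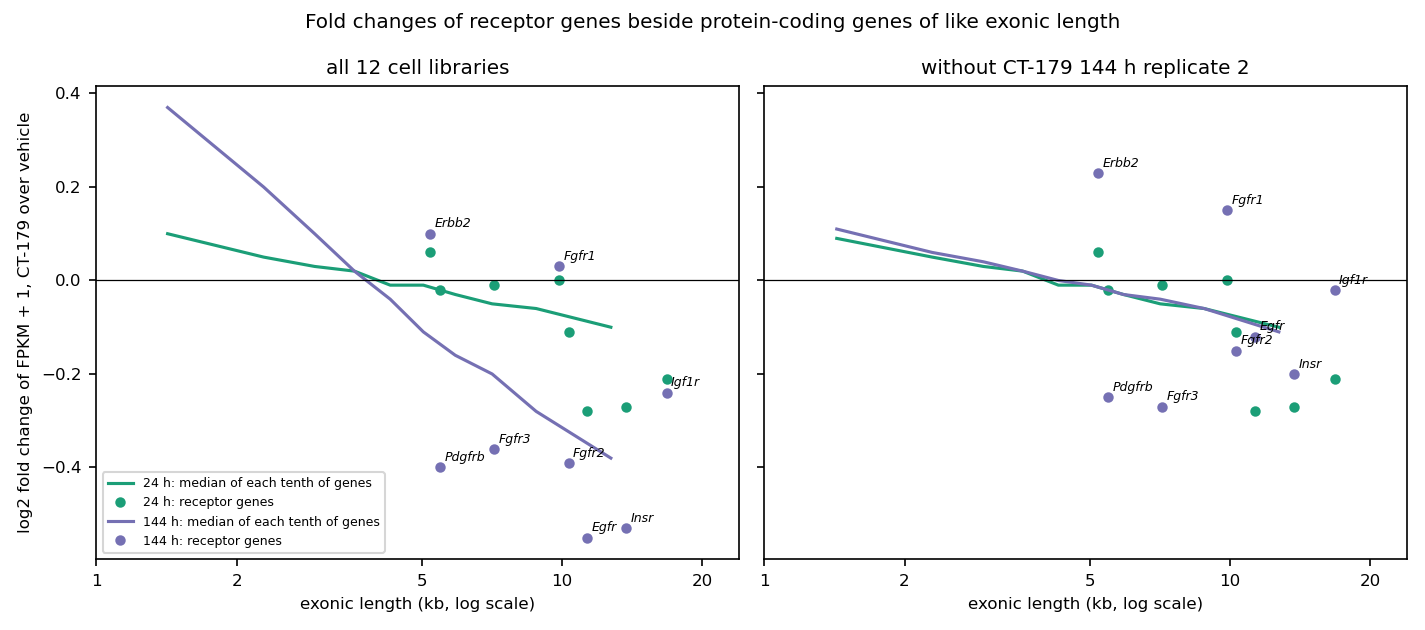
Log2 difference of FPKM + 1 between CT-179 and vehicle against exonic length (kb, log scale), at 24 h and 144 h, with all cell libraries (left) and without CT-179 144 h replicate 2 (right). Lines join the medians of length deciles of protein-coding genes and points are the 8 receptors; with all libraries the longest decile has a median of -0.38 at 144 h, and with the library left out -0.11.

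At 144 h Fgfr3 was the receptor that fell with CT-179 past the threshold, from 20.1, 19.0 and 21.4 FPKM in vehicle to 16.9, 13.4 and 16.2 FPKM. Its groups did not overlap, and its log2 change was -0.36 (SE 0.09, adjusted p 0.045). Thus 1 of 8 receptors tested passed, where 3.88% of all genes passed (3.37% lower). This call was at the edge of the threshold: the adjusted p was 0.061 to 0.19 when any of the 10 cell libraries other than CT-179 144 h replicates 1 and 2 was left out, 0.025 without replicate 1 and 0.0047 without replicate 2. The block on replicate number gave 0.068, and length correction with all libraries gave -0.17 (adjusted p 0.13). The log2 value stayed between -0.57 and -0.17 under all the alternatives run.

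CT-179 144 h replicate 2 had the lowest value of its group for all 10 receptors, including Egfr and Insr. Egfr read 21.5, 8.20 and 21.4 FPKM in replicates 1, 2 and 3, and Insr read 6.06, 2.41 and 5.48 FPKM. Igf1r read 9.92, 5.92 and 10.1 FPKM and Fgfr2 read 9.60, 5.65 and 10.3 FPKM. With that library in, these 4 genes differed from vehicle by -0.55, -0.53, -0.24 and -0.39 on the log2 scale with adjusted p of 0.16 to 0.23, and all had CT-179 libraries below all vehicle libraries. Pdgfrb read 2.73, 1.66 and 2.50 FPKM against 3.24, 3.32 and 3.33 FPKM (log2 difference -0.40, adjusted p 0.074). In all, 7 of 10 receptors lay below vehicle with no overlap, where 46.2% of all genes tested did not overlap and 27.0% of all genes tested did not overlap and were lower. Erbb3 was among the 7, but Erbb3 and Met were under the filter and so outside these shares.

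Without that library 6 of the 8 receptors tested passed at 144 h, 2 higher and 4 lower, where 28.7% of all genes passed (11.8% higher and 16.9% lower). Erbb2 was higher, at 15.5 and 16.0 FPKM against 13.3, 13.5 and 13 FPKM (log2 difference 0.23, SE 0.03, adjusted p 3.6e-04). Fgfr1 was higher, at 41.6 and 42.4 FPKM against 37.8, 38.2 and 37.4 FPKM (0.15, SE 0.04, adjusted p 0.017). In both genes replicate 2 read below every vehicle library instead, at 11.7 FPKM for Erbb2 and 32.7 FPKM for Fgfr1, and with it in, their values were 0.10 (adjusted p 0.43) and 0.03 (adjusted p 0.80). With it in and a length correction, Fgfr1 passed by limma as higher (0.32, adjusted p 0.033) and Erbb2 did not pass (0.20, adjusted p 0.054). Fgfr3 (-0.27, adjusted p 0.0047), Pdgfrb (-0.25, adjusted p 0.0096), Insr (-0.20, adjusted p 0.0099) and Egfr (-0.12, adjusted p 0.015) were lower. Fgfr2 (-0.15, 95% interval -0.29 to 0.00) and Igf1r (-0.02, -0.08 to 0.04) did not pass.

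The summed level of the pericyte and mural markers in CT-179 144 h libraries was 24.2 to 54.3 FPKM, against 51.4 to 54.1 FPKM in vehicle, and that of astrocyte markers 1060 to 1200 against 1080 to 1100 FPKM. Their part in the Pdgfrb and Fgfr3 values was not tested. Length again moved with the differences, with a rho of -0.68 over 11361 protein-coding genes with that library and -0.44 over 11338 without it. With both the length correction and the library left out, Erbb2 (0.26), Fgfr1 (0.23) and Igf1r (0.12) passed as higher, Fgfr3 (-0.21) and Pdgfrb (-0.21) passed as lower, and Egfr (-0.03), Insr (-0.09) and Fgfr2 (-0.06) did not pass, where 23.6% of all genes passed (12.8% higher and 10.8% lower). Erbb2, Fgfr1, Fgfr3 and Pdgfrb thus had calls in both fits without that library. With all libraries, scaling each to a constant sum took the 144 h median over all genes from -0.05 to -0.23 and turned the values of Erbb2 and Fgfr1 to -0.09 and -0.16. Erbb3 read 0.393, 0.118 and 0.331 FPKM against 0.510, 0.506 and 0.472 FPKM in vehicle, and Met 0.298, 0.145 and 0.343 FPKM against 0.313, 0.313 and 0.384 FPKM. Erbb3 was below vehicle in 3 of 3 libraries (exact permutation p 0.1, two-sided), and Met overlapped.

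**Figure D5:**
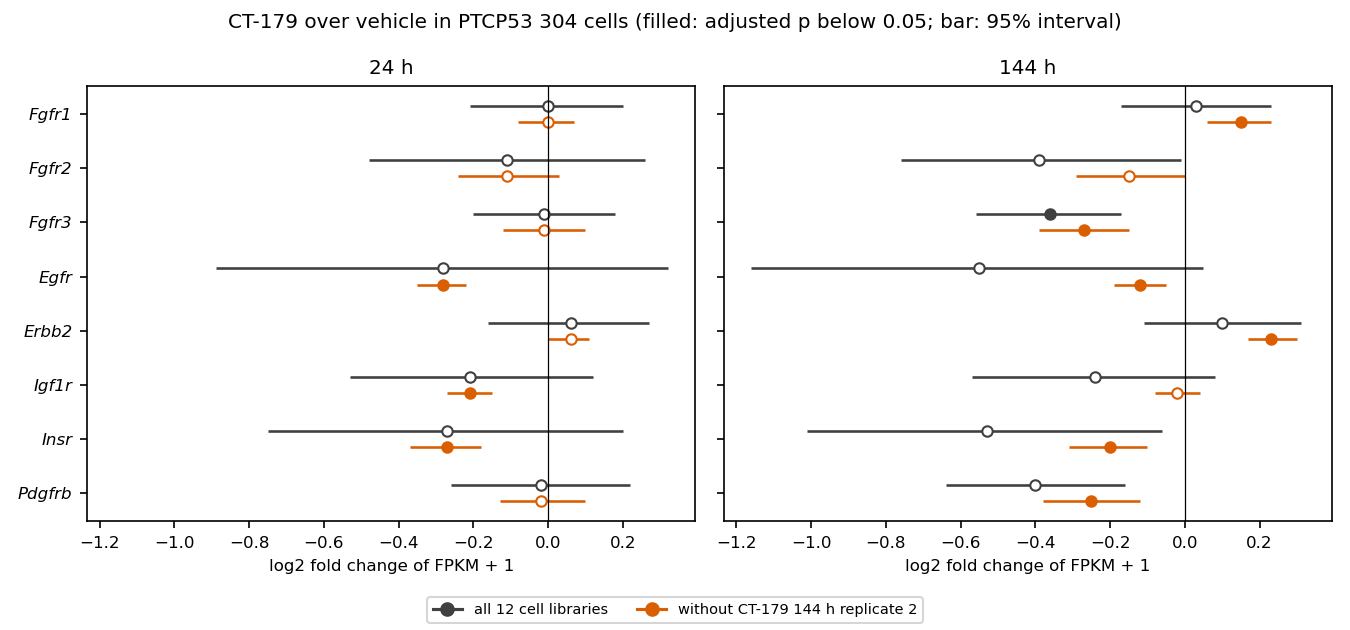
Log2 difference of FPKM + 1 between CT-179 and vehicle cells at 24 h (left) and 144 h (right) for the 8 receptors tested, with 95% intervals from limma, for all 12 cell libraries and without CT-179 144 h replicate 2. With all libraries the filled point (adjusted p under 0.05) is Fgfr3 at 144 h, at -0.36; without that library the intervals narrow at both times.

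Whether CT-179 acted unlike at the later time was tested as an interaction of treatment with time. With all libraries 0 of 8 receptors and 0.00% of all genes passed by limma, and 2 receptors had an unadjusted p under 0.05 (Fgfr3, -0.35, p 0.015, and Pdgfrb, -0.38, p 0.033). These 2 were under 1 FPKM in every 24 h library, where log2(FPKM + 1) shrinks a difference. Their values therefore cannot tell a different effect at the later time from that scale. Without CT-179 144 h replicate 2, Igf1r (0.19, adjusted p 0.031) and Erbb2 (0.18, adjusted p 0.043) passed, where 2.66% of all genes passed (1.20% higher). Igf1r was lower with CT-179 at 24 h and close to vehicle at 144 h, and Erbb2 was further above vehicle at 144 h. In this fit the difference between effects had a rho of -0.03 with length. With the length correction added, Erbb2 passed (0.17, adjusted p 0.043) and Igf1r did not (0.17, adjusted p 0.055), where 3.16% of all genes passed (1.32% higher).

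In whole brain, CT-179 and vehicle libraries overlapped for all 10 receptors, where 10.3% of all genes tested, which leave out Met, did not overlap. Fgfr3 read 18.5, 24.6 and 23.4 FPKM with CT-179 and 21.6, 20.8 and 19.4 FPKM with vehicle. Fgfr1 read 14.8, 17.6 and 17.2 FPKM against 16.6, 16.8 and 15.0 FPKM. Fgfr2 read 9.80, 10.2 and 11.2 FPKM against 11, 10.1 and 9.54 FPKM. In each FGF receptor the first CT-179 library was the lowest of its group. Erbb3 read 3.70, 4.42 and 4.83 FPKM against 4.28, 4.45 and 3.62 FPKM, and Pdgfrb 5.92, 6.33 and 6.14 FPKM against 5.12, 6.80 and 6.30 FPKM. Insr read 3.67, 3.79 and 4.30 FPKM against 3.86, 5.12 and 4.48 FPKM, and Igf1r 5.56, 4.56 and 5 FPKM against 3.91, 6.35 and 5.88 FPKM. Among the low receptors, Egfr read 1.37, 1.36 and 1.48 FPKM against 1.24, 1.90 and 1.54 FPKM and Erbb2 1.23, 1.30 and 1.25 FPKM against 0.978, 1.09 and 1.40 FPKM, and in both the vehicle libraries spread more widely.

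By limma over 13422 genes, 0 of 9 receptors tested in brain passed, where 0.00% of all genes passed, and 0 had an unadjusted p under 0.05. Their log2 differences ran from -0.15 (Insr, 95% interval -0.40 to 0.09) to 0.09 (Fgfr3, -0.16 to 0.34). Met, under the filter, read 0.413, 0.407 and 0.195 FPKM with CT-179 against 0.262, 0.274 and 0.150 FPKM with vehicle (exact permutation p 0.3, two-sided). In the authors' deposited table, whose log2 fold change is vehicle over CT-179, values for the 10 ran from -0.71 (Met, p 0.11) to 0.09 (Insr), with a false discovery rate of 1.0 for each. Across genes that column followed the means without vehicle replicate 2 (r 0.996), more closely than the means of all 3 vehicle libraries (r 0.579). Leaving out that library in limma gave 0 receptors, where 0.00754% of all genes passed.

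Genes around the receptors were taken from lists of ligands, co-receptors, other receptor tyrosine kinases, adaptors and effectors, inhibitors and output genes of MAPK signalling. Each count of these lists between 24 h and 144 h in vehicle stands beside the 66.5% of all genes that passed (34.1% higher and 32.4% lower), and genes low at 1 time could enter through the other. Of 35 ligands of the 10 receptors, 8 were tested in cells, and 5 rose and 2 fell (median 0.35). Fgf2, a ligand of the FGF receptors, rose from 0.786 ± 0.102 to 7.73 ± 0.278 FPKM (mean ± SD, n = 3 libraries; log2 change 2.29, adjusted p 3.2e-07 by limma), Igf2, a ligand of IGF1R, rose (1.43), Hbegf, a ligand of EGFR, rose (0.67), and Pdgfa, a PDGF chain, fell from 26.5 to 7.74 FPKM (-1.66). At 24 h in vehicle Fgf2 had a mean under 1 FPKM and could pass the filter through the 144 h libraries. Its p-value is therefore no support for the rise. Ligands at or near 0 in cells included Igf1, Hgf and Nrg1, each at a mean of at most 0.0897 FPKM in every cell group.

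Of 44 other receptor tyrosine kinases, 22 were tested and 11 rose and 8 fell (median 0.28), against 66.5% of all genes past the threshold. Ntrk2, the receptor for BDNF, rose from 0.916 ± 0.0385 to 59.3 ± 0.926 FPKM (mean ± SD, n = 3 libraries), and Ephb1 rose from 2.17 ± 0.21 to 40.8 ± 0.72 FPKM. Tyro3 rose (1.56) and Flt4, a VEGF receptor, fell (-1.52). Of 12 co-receptors tested 6 rose and 5 fell (median 0.03), among them the heparan sulphate carriers Sdc1 (-1.36), Sdc2 (0.70) and Gpc1 (0.98), and Cd44 (-1.13). Of 39 adaptors and effectors tested 13 rose and 9 fell (median 0.06). Gab1, a docking protein for several of these receptors, rose by 1.64, and Frs3 (0.59), Nras (0.42) and Araf (0.54) rose.

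Of 21 inhibitors and down-regulators tested 8 rose and 6 fell (median 0.16), with Socs2 at 1.05, Flrt3 at -1.46, Ptprj at -1.69 and Fgfrl1 at -0.47. Of 17 MAPK output genes tested, 1 rose and 15 fell, with a median of -1.81 against 0.01 over all genes, of which 34.1% rose and 32.4% fell. Dusp6, the phosphatase of ERK, fell from 95.5 ± 2.39 to 1.19 ± 0.06 FPKM (mean ± SD, n = 3 libraries; log2 change -5.46), Spry4 from 55.7 ± 1.52 to 0.468 ± 0.0906 FPKM (-5.27), Etv4 from 78.3 to 1.43 FPKM (-5.03) and Spry1 from 47.2 ± 0.748 to 2.51 ± 0.159 FPKM (-3.78). Over the same interval Fgfr1 stood at 0.684 of its 24 h level and Fgfr3 and Fgfr2 rose. Spry4 had a mean under 1 FPKM in vehicle at 144 h and could pass the filter through the 24 h libraries. The count and the median of the MAPK output genes are therefore no support for a fall of that list. Dusp6, Etv4 and Spry1 had means above 1 FPKM at both times.

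With CT-179, few genes of these lists passed. At 24 h 0 did with all libraries by limma. At 144 h Dusp6 (0.31, adjusted p 0.0074) and Fgfrl1, a decoy FGF receptor (0.23, adjusted p 0.042), were higher and Spred3, an inhibitor of RAS signalling (-0.34, adjusted p 0.025), was lower, and these were the genes of the 6 lists that passed, where 3.88% of all genes did. With scaling to a constant sum 0 MAPK output genes and 0 inhibitors passed, so all 3 calls were lost, and Spred3 was also lost with length correction. Without CT-179 144 h replicate 2, 28.7% of all genes passed (11.8% higher and 16.9% lower). In that fit 9 of 17 MAPK output genes were higher and 2 lower, with Dusp6 at 0.30, Spry2 at 0.21, Etv5 at 0.32 and Spred2 at 0.18. Of the other lists in that fit, co-receptors had 6 higher and 1 lower of 12, inhibitors 5 and 2 of 21, other receptor tyrosine kinases 4 and 3 of 22, adaptors 3 and 9 of 39, and ligands 0 and 2 of 8 (Fgf2 at -0.18 and Fgf1 at -0.16). The adaptor and ligand counts did not hold with the length correction added, where 23.6% of all genes passed (12.8% higher and 10.8% lower). Adaptors then had 5 higher and 2 lower, and ligands 0 and 0. MAPK output genes had 8 and 2, co-receptors 7 and 1, inhibitors 10 and 1, and other receptor tyrosine kinases 8 and 1. Igf2r, the clearance receptor for IGF2, was lower at both times without CT-179 144 h replicate 2 and without length correction. Its values were -0.45 at 24 h and -0.29 at 144 h, with adjusted p of 2.1e-05 and 3.7e-04 by limma. In that fit 22.2% of all genes passed at 24 h and 28.7% at 144 h (14.1% and 16.9% lower). The part of gene length in the Igf2r values was not tested. In brain 0 genes of the 6 lists passed.

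Across the 12 cell libraries the receptors fell into sets that varied together, given as Pearson's r of log2(FPKM + 1) with no test, since the points share groups, depth and the library that stood apart. Fgfr2, Fgfr3 and Pdgfrb had r of 0.94 to 0.98 with each other. Egfr, Igf1r and Insr had r of 0.93 to 0.99, and these 3 are among the longest genes. Fgfr1 and Erbb2 had an r of 0.94, and Fgfr1 and Fgfr3 an r of -0.93. Among 11316 genes searched, those closest to Fgfr3 were Arvcf (0.9996), Pld2 (0.9995) and Parvb (0.9994), which like it were low at 24 h and high at 144 h. Those closest to Fgfr2 were Ptch1 (0.9956), Zfp36l2 (0.9952) and Rora (0.9950), and Mgat5b (0.9985) and Kit (0.9980) were among the 3 closest to Pdgfrb. Egfr was closest to Birc6 (0.9974), Ep400 (0.9960) and Tln1 (0.9960), Igf1r to Snrnp200 (0.9924), Tln1 (0.9915) and Flna (0.9888), and Insr to Bdp1 (0.9977), Igf2r (0.9973) and Uggt1 (0.9973). Fgfr1 was closest to Ptk7 (0.9956), Irf2bpl (0.9922) and Marveld1 (0.9914), and Erbb2 to Eif4b (0.9755), Tgm2 (0.9751) and Fam114a1 (0.9729).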

How the data were processed

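RNA was sequenced from 12 libraries of PTCP53 304 cells and 6 libraries of whole brain, as paired-end reads of 100 bases, per the labels' protocols. The submitters' processing notes name mm10, R 3.6, edgeR 3.28.1, HTSeq 0.6.1p2, STAR 2.6.0c and Trim Galore 0.5.0. Annotation, settings and strand are not given in the sources used here. Values are FPKM for each gene and library, as deposited. Per the file headers, the brain table adds the authors' log2 fold change and mean log2 CPM. Per the file headers it also holds a score (the likelihood ratio), the p-value and a false discovery rate.

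Low FPKM values times the GENCODE M21 exonic length were whole multiples of 1 read (tolerance 0.1 read, up to 20 reads) for 70.1% to 79.8% of values in cells and 93.1% to 97.7% in brain. Depths found from these steps were larger than the FPKM scale by a factor of 1.23 to 1.40, so they describe depth and no count model was run.

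The test was limma 3.58.1 (R 4.3.3) on log2(FPKM + 1), over genes that reached 1 FPKM in 3 or more libraries (group means, variance trend, two-sided, Benjamini-Hochberg over all genes tested, threshold 0.05, no fold minimum). Cells (12510 genes) and brain (13422 genes) were fitted separately. This scale understates changes of low genes, and the filter left out Erbb3 and Met in cells and Met in brain; for these an exact permutation test was used. Samples were grouped by their treatment, time and source labels. The procedure was tested on simulated data. The receptors and gene lists were chosen with earlier results of these data known. All 10 receptors were named; from each list up to 4 genes with the smallest p among those past the threshold were named per comparison, and for each receptor tested the 3 genes with the highest correlation. Of these, 1 gene is not reported here. Ligands at or near 0, Igf2r at 24 h and 144 h and other genes named outside this rule were chosen after their values were seen.

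Alternatives were a pseudocount of 0.1 FPKM, no filter on low values, median-of-ratios scaling, scaling to a constant sum (TPM), a lowess correction for exonic length, a replicate block, and leaving out each library; leaving out cell libraries outside the groups compared, and the length correction without CT-179 144 h replicate 2 in comparisons that do not hold it, were added after seeing the data. Replicate numbers in the labels had same-number correlations of deviations above 0.1 in all 3 pairs only between CT-179 24 h and CT-179 144 h (0.11, 0.24 and 0.14). The main fit did not pair these 2 groups. The replicate block, shared by all 4 cell groups, was an alternative and gave the same 3 receptors higher and 3 lower there.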

Additional observations from a re-analysis of the deposited data

How the results depend on the processing

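Of 877 receptor values under alternatives, 771 kept their direction and their side of the threshold, 21 lost the call, 33 gained it and 52 changed sign; unless a value below shows otherwise, the cause was not tested. The counts of receptors past the threshold for time were 4 (TPM scaling) to 8 in vehicle and 5 to 8 under CT-179 over all settings. In vehicle the 4 stood beside 7752 of 12510 genes. The 8 stood beside 9253 of 12505 (length correction) to 10922 of 12459 (without CT-179 144 h replicate 2). Under CT-179 the 5 stood beside 7373 of 12489 (without CT-179 24 h replicate 1) to 7707 of 12510 (TPM scaling). The 8 there stood beside 8091 of 12484 (without CT-179 144 h replicate 3) to 10651 of 12454 (length correction without CT-179 144 h replicate 2).

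With 1 library left out at a time, the number of receptors past the threshold ranged from 0 to 3 for CT-179 at 24 h, from 0 to 6 at 144 h and from 0 to 2 for the difference between times. Each was highest without CT-179 144 h replicate 2, where 22.2%, 28.7% and 2.66% of all genes passed, in that order. Sign changes at 24 h were in Pdgfrb (-0.06 to 0.01), Fgfr1 (-0.04 to 0.02) and Fgfr3 (-0.03 to 0.01), and at 144 h in Fgfr1 (-0.04 to 0.15). For the difference between times they were in Igf1r (-0.15 to 0.19), Insr (-0.45 to 0.07), Egfr (-0.48 to 0.16), Fgfr1 (-0.03 to 0.15) and Erbb2 (-0.03 to 0.18). In brain they were in Igf1r (-0.24 to 0.05), Erbb3 (-0.02 to 0.14), Egfr (-0.18 to 0.01), Pdgfrb (-0.08 to 0.09), Fgfr2 (-0.02 to 0.08) and Fgfr1 (-0.02 to 0.10).

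At 144 h the count was 0 with a pseudocount of 0.1 FPKM, with no filter on low values, with median-of-ratios scaling, with TPM scaling and with the replicate block. It was 2 with length correction (by limma, Fgfr1 at 0.32, adjusted p 0.033, and Pdgfrb at -0.28, adjusted p 0.042), where 723 of 12505 genes passed. It was 5 with length correction without CT-179 144 h replicate 2 (23.6% of all genes). With that last setting the count was 3 at 24 h (16.1% of all genes) and 1 for the difference between times (3.16%). Under the replicate block the counts were 0 at 24 h, 0 for the difference and 0 in brain. Except for the pair named under processing, same-number correlations were -0.13 to 0.11 in cells and -0.39, 0.11 and -0.04 in brain.

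Median-of-ratios scaling gave Fgfr1 0.03 at 24 h. TPM scaling gave Erbb2 -0.00 at 24 h; Fgfr1 -0.16 and Erbb2 -0.09 at 144 h; Fgfr1 -0.10 and Erbb2 -0.08 for the difference; and in brain Erbb3 -0.02, Pdgfrb -0.07, Fgfr2 -0.06 and Fgfr1 -0.06. Length correction gave Pdgfrb 0.02, Fgfr1 0.08 and Fgfr3 0.05 at 24 h, with or without CT-179 144 h replicate 2, Igf1r 0.19 at 144 h (0.12 without it) and 0.25 for the difference (0.17 without it, with Insr 0.06 and Egfr 0.16). In brain it gave Igf1r 0.04, and without vehicle replicate 2 Igf1r 0.11 and Egfr 0.05.

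Genes past the threshold at 144 h numbered 486 (64 higher and 422 lower), 440 by median-of-ratios (97 and 343), 396 by TPM (31 and 365), 723 with length correction (217 and 506) and 301 with the block; at 24 h they numbered 33, 19, 13, 41 and 2. Low read numbers limit Erbb3 and Met at 24 h.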
